A study of Mus musculus with 16 samples.

Results

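The genes described here are 38 mouse genes that encode subunits of the Polycomb repressive complexes and of the Trithorax-group complexes, together with the demethylases that remove the marks these complexes place. They were chosen by name, with earlier results of these data known. An OCT4 peak was assigned to a gene when its midpoint lay within 50 kb of any annotated transcript start of that gene. The annotation was GENCODE M21 on mm10, the mouse genome build also called GRCm38. All 38 symbols were found as protein-coding genes in the annotation. Of the 26704 OCT4 peaks in the list, 131 lay within 50 kb of at least 1 of these genes, and 36 of the 38 genes (94.7%, 95% Wilson interval 82.7 to 98.5) had at least 1 peak. The share of all 21938 protein-coding genes with a peak in the same window was 72.1%.

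The peaks came from ChIP-seq, in which DNA fragments bound by a protein are precipitated with an antibody and sequenced, for the transcription factor OCT4 in 2TS22C cells. This is a mouse embryonic stem (ES) cell line without functional endogenous Sox2 in which a Tet-Off promoter drives a Sox2 transgene, so that doxycycline (dox) switches SOX2 off. Both groups of OCT4 libraries carry this background and were grown in serum with LIF and the kinase inhibitors CHIR99021 and PD184352: 2 libraries were from untreated cells (SOX2 ON) and 2 from cells given dox at 1 µg/ml for 26 h (SOX2 OFF). The list is a merge without peak heights or a value per library, so it is not known which of the 4 libraries supplied a given peak, how deeply each was sequenced, or whether a peak near a Polycomb or Trithorax gene depended on SOX2. No test over replicates could be made, the identity of the cells could not be checked from coordinates, and a peak beside a gene gives only a position. The series has 16 libraries in 8 groups, and the other libraries are not used here.

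Polycomb repressive complex 2 (PRC2) methylates lysine 27 of histone H3, and Polycomb repressive complex 1 (PRC1) ubiquitinates lysine 119 of histone H2A and compacts chromatin. Trithorax-group complexes of the COMPASS family methylate lysine 4 of histone H3 (H3K4) and counteract Polycomb silencing. In ES cells the promoters of many developmental regulators carry both the Polycomb mark H3K27me3 and the Trithorax mark H3K4me3. OCT4, encoded by Pou5f1, binds an octamer element alone or binds together with SOX2 on a composite element in which a SOX element adjoins the octamer.

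The composite element was searched on both strands as the octamer ATTTGCAT followed directly by AACAATG, with at most 3 mismatches. It was found in 16 of the 131 peaks, and 13 of these matches had 3 mismatches. The closest was in the peak 1.86 kb upstream of the start of Phc1, which encodes a polyhomeotic subunit of PRC1, and had 1 mismatch (chr6:122342520-122342638, minus strand). Matches with 2 mismatches were found in a peak shared by the windows of the neighbouring chromodomain genes Cbx2 and Cbx8 (chr11:119048318-119048436, plus strand) and in a peak 44.1 kb upstream of Phc2 (chr4:128610597-128610715, minus strand). The stretch around the match in the peak 0.918 kb upstream of Aebp2, a gene for a PRC2 accessory subunit, is printed because its match of 3 mismatches lay 4 bp from the peak midpoint (chr6:140621712-140621770, plus strand). These stretches are given from 5′ to 3′ on the strand of the match, with the 15 matching bases in capitals.
Phc1: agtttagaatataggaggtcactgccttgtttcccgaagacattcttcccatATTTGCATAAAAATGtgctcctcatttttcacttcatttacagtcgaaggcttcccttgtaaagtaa
Cbx2/Cbx8: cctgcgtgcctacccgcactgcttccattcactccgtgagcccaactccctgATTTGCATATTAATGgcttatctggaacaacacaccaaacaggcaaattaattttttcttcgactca
Phc2: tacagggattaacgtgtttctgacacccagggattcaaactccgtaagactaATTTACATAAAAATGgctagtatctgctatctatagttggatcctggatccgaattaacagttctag
Aebp2: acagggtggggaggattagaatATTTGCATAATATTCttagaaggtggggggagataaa

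The Phc1, Cbx2/Cbx8 and Aebp2 stretches each held the exact octamer within the match, whereas the Phc2 stretch did not. In all, 5 of the 16 peaks with a composite match held an exact octamer somewhere in the peak. The composite match did not overlap repeat-masked bases in any of these 4 stretches. The Phc1 match lay 160 bp from the midpoint of its 534 bp peak, the Cbx2/Cbx8 match 119 bp from the midpoint of its 724 bp peak, and the Phc2 match 70 bp from the midpoint of its 263 bp peak.

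Some matches recurred. The same 15 bases were present upstream of Suz12, which encodes the scaffold of PRC2 (chr11:79980773-79980831, minus strand), and upstream of Phc3 (chr3:31006997-31007055, minus strand), and were found in 15 peaks of the whole list. Another 15 bases, present 6.8 kb upstream of Ezh2, the gene for the PRC2 methyltransferase (chr6:47602049-47602107, plus strand), and in a peak 18.3 kb downstream of a start of Wdr5, were found in 101 peaks of the list. All 15 bases of the Ezh2 match were repeat-masked, and repeats made up 78% of that peak and 81.3% of the Wdr5 peak. The matches are again in capitals.
Suz12: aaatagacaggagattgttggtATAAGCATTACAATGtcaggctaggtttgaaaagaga
Phc3: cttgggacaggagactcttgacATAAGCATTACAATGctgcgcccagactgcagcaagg
Ezh2: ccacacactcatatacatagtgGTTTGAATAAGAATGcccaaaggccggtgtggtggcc

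The central 200 bp of the peak nearest to a start are printed for Jarid2 (chr13:44728608-44728807, plus strand) and Eed (chr7:89975614-89975813, minus strand), 2 of the 3 genes with the highest peak counts, on the strand of the gene. Capitals mark SOX cores (CCATTGT or CCTTTGT on either strand) in the Jarid2 stretch, and the ESRRB motif AAGGTCA in the Eed stretch. The peak nearest to a start of Cbx6, the remaining gene of the 3, lay in a 3′ untranslated region and is not printed.
Jarid2: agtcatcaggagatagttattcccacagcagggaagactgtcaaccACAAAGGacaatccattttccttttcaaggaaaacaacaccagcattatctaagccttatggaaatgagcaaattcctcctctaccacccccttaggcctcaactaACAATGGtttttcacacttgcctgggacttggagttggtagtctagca
Eed: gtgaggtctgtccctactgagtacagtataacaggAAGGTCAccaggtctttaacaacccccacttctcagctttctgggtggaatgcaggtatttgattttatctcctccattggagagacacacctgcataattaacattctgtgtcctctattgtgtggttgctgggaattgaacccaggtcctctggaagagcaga

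Members had 0 to 11 OCT4 peaks within 50 kb, with a mean of 3.55 ± 2.24 (SD over 38 genes) and a median of 3, against a mean of 1.88 and a median of 1 over all protein-coding genes. Because a peak can lie near several genes in gene-dense regions, each member was set beside all protein-coding genes of the same density class, defined as the number of other protein-coding genes with a start within 50 kb, counted up to 5. The mean over these classes was 1.91, so the members had 1.86 times as many peaks, and 29 of 38 exceeded the mean of their class, as did 44.7% of all protein-coding genes. At least 5 peaks were found at 11 members, or 28.9%, where 9.21% of all protein-coding genes had that many. Members had more annotated starts than other genes (a mean of 7.63 against 4.26) and therefore wider windows (135 kb against 121 kb on average). Against genes of the same density class with a like number of starts the ratio was 1.46, and per 100 kb of window it was 1.66. In that comparison with like numbers of starts, 82.8% of genes had at least 1 peak and 14.3% at least 5.

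**Figure D1:**
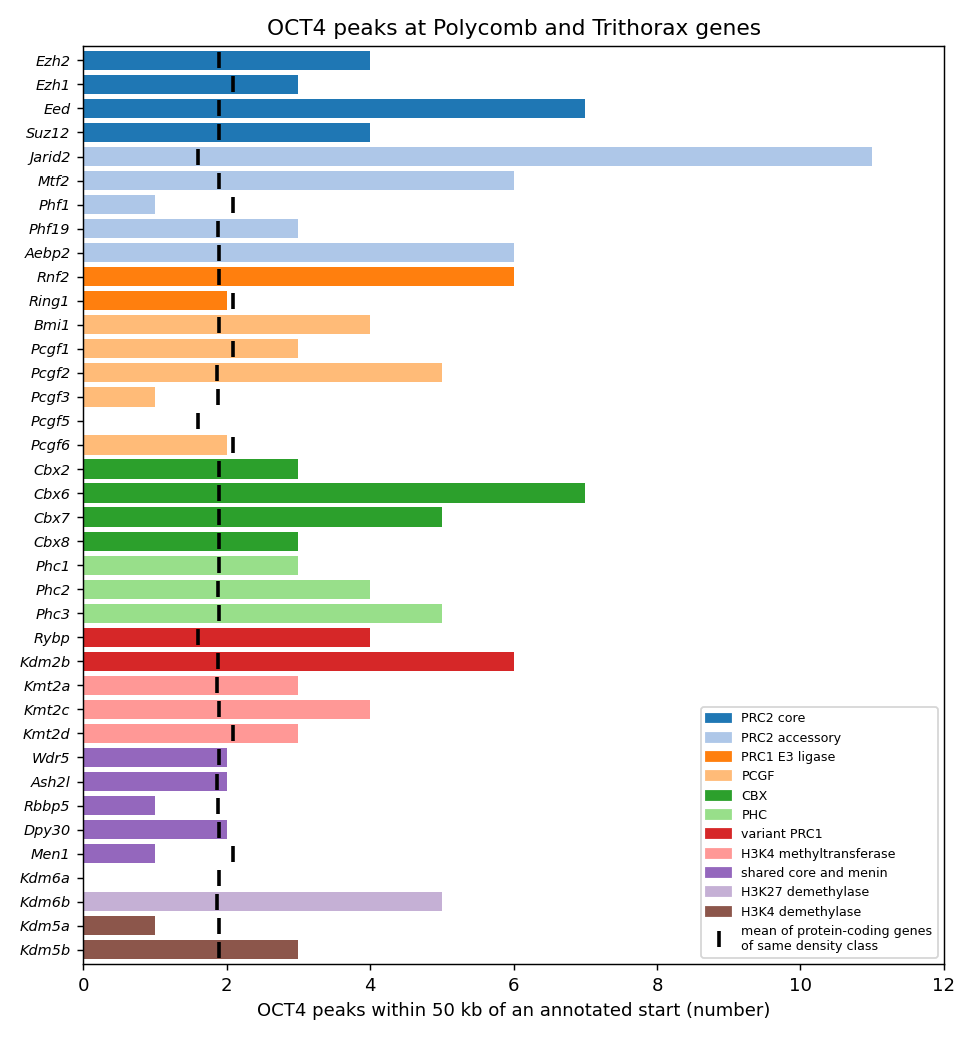
OCT4 peaks within 50 kb of an annotated start for each of the 38 genes (bars, number of peaks, coloured by role) and the mean of protein-coding genes of the same density class (black marks). Jarid2 has 11 peaks, Eed and Cbx6 have 7, and Pcgf5 and Kdm6a have none.

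**Figure D2:**
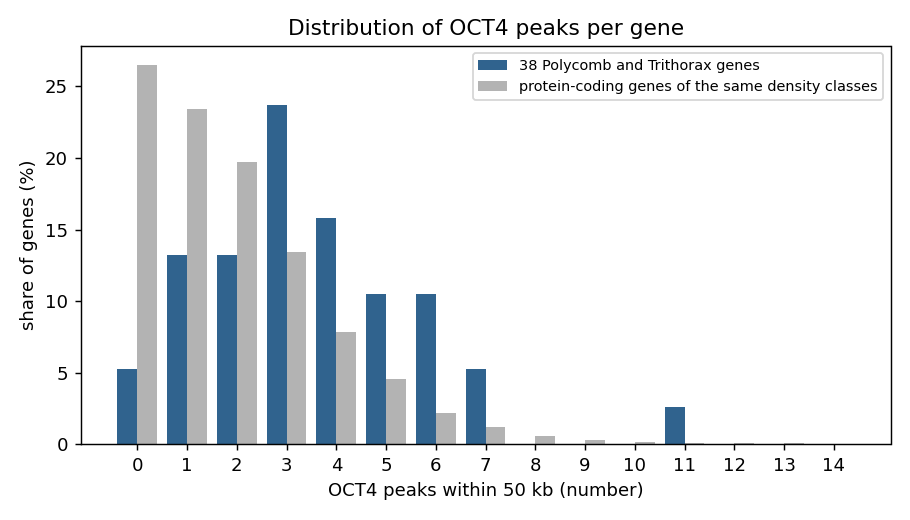
Share of genes (%) by number of OCT4 peaks within 50 kb, drawn up to 14 peaks, for the 38 genes (blue) and for protein-coding genes of the same density classes (grey, averaged over the members' classes). No peak was found at 5.26% of the members and at 26.5% of the genes of the same classes.

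The 26 Polycomb genes and the 12 Trithorax-group genes had different means. The Trithorax set as counted here includes the demethylase genes Kdm6a, Kdm6b, Kdm5a and Kdm5b. Its values therefore do not describe the H3K4 methyltransferase complexes alone. Kdm2b was counted with the Polycomb genes. Polycomb genes had 4.15 ± 2.31 peaks (SD over 26 genes, median 4) 2.19 times the mean of their density classes, and 25 of 26 had at least 1 peak, against 73% of genes of the same density. Trithorax-group genes had 2.25 ± 1.42 peaks (SD over 12 genes, median 2) and 11 of 12 had at least 1 peak, against 74.5%. Their ratio was 1.17 against genes of the same density, but 0.991 against genes that also had a like number of starts and 0.948 per 100 kb of window, whereas the Polycomb ratio was 1.65 and 2.04 in these comparisons. Within the Trithorax set the ratio to the density classes was 1.71 for the H3K4 methyltransferases and 0.83 for the shared core and menin. It was 1.33 for the H3K27 demethylases and 1.05 for the H3K4 demethylases. These role ratios take no account of window width. Per 100 kb of window the methyltransferases had 1.91 peaks and the shared core and menin 1.39. The H3K27 demethylases had 1.56 and the H3K4 demethylases 1.22, against 1.55 for all protein-coding genes. The counts of individual genes overlapped widely, from 0 to 11 for Polycomb and from 0 to 5 for Trithorax genes. The difference between both sets was not tested, since genes are not replicates and neighbours share peaks.

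The core of PRC2 had 18 peaks at its 4 genes. Eed, which encodes the subunit that binds H3K27me3, had 7 peaks, more than 96.9% of genes of its density class. Of these, 4 lay upstream of its first start at 16.7, 26.3, 42.8 and 44.1 kb, and 1 lay 3.42 kb upstream of an internal start. The other 2 lay at 16 and 16.8 kb downstream of another start, beyond the end of the gene. Both were nearest to Hikeshi, at 0.064 and 0.841 kb from a start of that gene. The composite match at Eed was in the peak at 44.1 kb. Ezh2 had 4 peaks, of which the nearest lay 430 bp upstream of its first start. Suz12 also had 4, with 3 of them between 12.3 and 16.4 kb upstream. Ezh1, which encodes the alternative methyltransferase, had 3 peaks, and its composite match lay 37.3 kb downstream of a start, inside Tubg2. Ezh1 was the PRC2 core gene with the count nearest to its class mean of 2.09.

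The accessory subunits of PRC2 had the highest mean of the 11 roles, 5.4 peaks per gene over 5 genes, but 4 over the other 4 genes without Jarid2, below the means of variant PRC1 (5), the PRC2 core (4.5) and the CBX genes (4.5). Per 100 kb of window the CBX genes had 4.09 peaks and the accessory subunits 4.06. Jarid2 (ENSMUSG00000038518, chr13:44729474-44921643, plus strand), whose product helps to recruit PRC2 to chromatin, had 11 peaks, the highest count of the 38 and more than 99.3% of genes of its class. Jarid2 had no other protein-coding gene with a start within 50 kb and was the nearest protein-coding gene of all 11 peaks. It also had 16 annotated starts, where the members had a mean of 7.63. Upstream of its first start, 6 intergenic peaks lay at 0.767, 7.07, 10.8, 23.9, 41 and 49.9 kb. The other 5 lay in introns, between 10.9 and 29 kb from an internal start. The peak at 49.9 kb was just inside the window, and another at 50.2 kb from a Jarid2 start was just outside. With only the most upstream start Jarid2 had 7 peaks, level with Eed and Cbx6, against a class mean of 1.2. Without Jarid2 the ratio of the members to their density classes was 1.75.

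Mtf2, which encodes a Polycomb-like protein that binds CpG-rich DNA, had 6 peaks, all nearest to Mtf2. A pair of these covered or adjoined the start, at 5 bp and 261 bp downstream of annotated starts, and 5 of the 6 lay within 10 kb. Aebp2 also had 6 peaks, all upstream of its first start, from 74 bp to 45.2 kb. The Aebp2 peak at 918 bp, which holds the composite match printed above, lay in an exon of the noncoding gene Gm44013, and also held an ESRRB motif and a SOX core. The Polycomb-like genes Phf19 and Phf1 had 3 peaks and 1 peak. The Phf1 peak, 5.84 kb downstream of a start, was nearer to Cuta.

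Rnf2, which encodes RING1B, the principal H2A ubiquitin ligase of PRC1 in ES cells, had 6 peaks and its paralogue Ring1 had 2. At Rnf2 (ENSMUSG00000026484, chr1:151458004-151500955, minus strand) 3 peaks lay within 1 kb of an annotated start. The peak at 5 bp lay in the 5′ untranslated region, had a GC content of 73.6% and held the YY1 core GATGGCG. The other 2 lay at 388 bp downstream and 583 bp upstream of an internal start. The remaining 3 peaks were 15.2 and 43.6 kb upstream and 44.6 kb downstream. The peak with a composite match at Ring1 was 43.6 kb away and nearest to H2-K1.

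The PCGF genes, whose products pair with RING1A or RING1B and define the types of PRC1, had the lowest mean of the Polycomb roles, 2.5 peaks per gene over 6 genes. Pcgf2 (MEL18) had 5 peaks and Bmi1 (PCGF4) had 4, and both encode partners of canonical PRC1. Pcgf1, the partner of KDM2B in a variant complex, had 3 peaks, each in a 5′ untranslated region of another gene. Pcgf6 had 2 peaks, 1 of them in its own intron at 1.92 kb, and Pcgf3 had 1 in the 3′ untranslated region of Cplx1. Pcgf5 had none, and the peak closest to it lay 111 kb away. No PCGF gene had a peak within 1 kb of one of its own starts, and for Pcgf1, Pcgf2 and Pcgf3 every peak was nearer to another protein-coding gene. Bmi1, Pcgf1 and Pcgf2, 3 of the 6, exceeded the mean of their density class, a share near the 44.7% of all protein-coding genes.

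The CBX genes, which encode chromodomain readers of H3K27me3 in canonical PRC1, had 18 gene-peak pairs but only 14 distinct peaks, since 3 peaks lay near both Cbx2 and Cbx8 and 1 lay near both Cbx6 and Cbx7. Cbx6 had 7 peaks, more than 97.5% of genes of its class, of which 5 were upstream between 12.3 and 48.5 kb. Only 3 of the 7 were nearest to Cbx6, and the others were nearest to Nptxr or Apobec3. Cbx7, whose product is the prevalent canonical CBX protein of ES cells, had 5, including peaks 803 bp upstream and 501 bp downstream of annotated starts. Cbx2 and Cbx8 lie side by side, and Cbx8 was the nearest protein-coding gene of all 3 peaks they share. These lay 292 bp downstream and 7.29 and 12.2 kb upstream of starts of Cbx8, and at 16.8, 24.5 and 29.5 kb downstream of a start of Cbx2.

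The polyhomeotic genes Phc1, Phc2 and Phc3, whose products polymerise through a SAM domain, had 3, 4 and 5 peaks. Phc1 (ENSMUSG00000040669, chr6:122317731-122340561, minus strand) had all 3 upstream, at 398 bp, 1.86 kb and 25.8 kb, and each held an exact octamer. The peak at 398 bp was 1018 bp wide. Phc2 had 1 peak 582 bp from an internal start, while its composite match was in a peak nearest to Zscan20, at 0.488 kb from a start of that gene. Phc3 had the most of the 3, but its nearest peak was at 32.1 kb, and each of the 5 was nearest to another gene, 4 of them inside Prkci.

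Both variant PRC1 genes exceeded the mean of their class. Kdm2b, whose CXXC domain brings PRC1 to unmethylated CpG islands, had 6 peaks, 5 of them within 10 kb of one of its 19 annotated starts. The peaks at 256 bp upstream and 499 bp downstream lay at internal starts. Rybp had 4 peaks, including 1 in a coding exon 87 bp upstream of an internal start, and 1 at 48.4 kb. With only the most upstream start Kdm2b and Rybp had 2 peaks each, against class means of 1.62 and 1.2.

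Among Trithorax-group genes the H3K4 methyltransferases Kmt2c, Kmt2a and Kmt2d had 4, 3 and 3 peaks, and none lay within 1 kb of one of the gene's own starts. The nearest were at 1.03 kb upstream of Kmt2d and 1.19 kb upstream of Kmt2c, which has a window of 227 kb. The subunits that all COMPASS complexes share, and menin, had the lowest mean of the 11 roles, 1.6 peaks over 5 genes. Wdr5, Ash2l and Dpy30 had 2 each, Rbbp5 had 1 and Men1 had 1. The Ash2l peak at 131 bp held a composite match of 3 mismatches and an exact octamer, and Dpy30 had a peak at 462 bp of a start. The Men1 peak lay 863 bp from an internal start in a 3′ untranslated region and was nearer to Map4k2.

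The demethylases differed within each pair. Kdm6b, which encodes the H3K27 demethylase JMJD3, had 5 peaks, the highest count of the Trithorax set, with 3 within 10 kb at 2.04, 3.31 and 3.94 kb. Its X-linked counterpart Kdm6a had none, and the closest peak was 279 kb away. On the X chromosome 44.5% of protein-coding genes had a peak within 50 kb, against 74% on the autosomes. Kdm5b, which encodes an H3K4 demethylase, had 3 peaks, the nearest 3.82 kb downstream of a start, and Kdm5a had 1 at 42 kb, nearest to another gene.

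Distance from the starts was examined next. Within 10 kb, 30 of 38 members (78.9%) had a peak, against 38.5% of all protein-coding genes and 51.5% of genes of like density and number of starts. Within 1 kb, 14 members (36.8%) had a peak, against 16.5% and 25%. These 14 were Ezh2, Jarid2, Mtf2, Aebp2, Rnf2, Cbx7, Cbx8, Phc1, Phc2, Rybp, Kdm2b, Ash2l, Dpy30 and Men1. With only the most upstream start of each gene, 9 of them (against 12.5% of all protein-coding genes in that setting) remained, since Phc2, Rybp, Kdm2b, Dpy30 and Men1 had their peaks at internal starts. In the 50 kb window, that setting also lowered the count of Cbx7 from 5 to 3, of Phc2 from 4 to 2 and of Ash2l from 2 to 1. It left Pcgf3 and Kdm5a with none. The counts of Ezh2, Ezh1, Rnf2, Pcgf2, Phc3 and Kmt2a were lower too, as were those of Jarid2, Kdm2b and Rybp given above. With any start counted, members had 0.526 peaks per gene within 1 kb, where all protein-coding genes had 0.184. Genes of like density and number of starts had 0.293. From 25 to 50 kb members had 1.29 against 0.787 for all protein-coding genes. The median distance over the 135 gene-peak pairs was 15.7 kb, and 79 pairs were upstream and 56 downstream of the nearest own start.

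**Figure D3:**
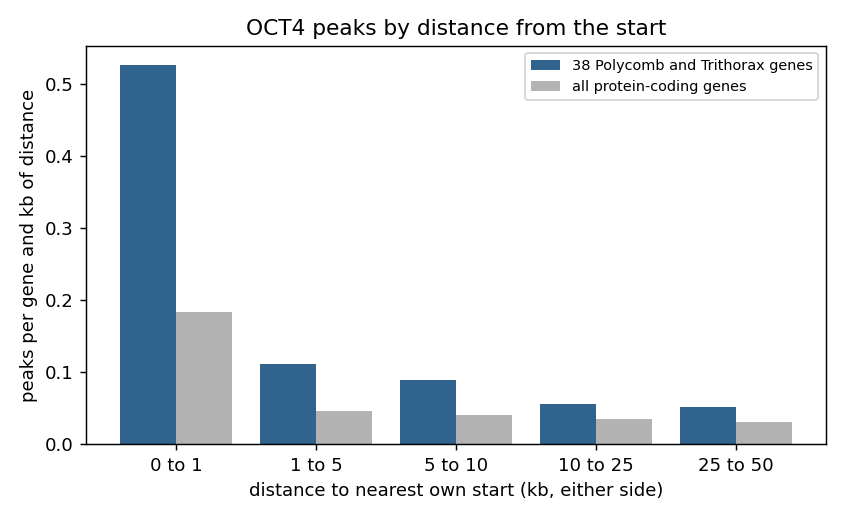
OCT4 peaks per gene and per kb of distance (vertical axis) in 5 ranges of distance to the nearest own start in kb (horizontal axis), for the 38 genes (blue) and all protein-coding genes (grey). The members are above all protein-coding genes in each range, at 0.526 against 0.184 within 1 kb. Genes of like density and number of starts, not drawn, had 0.293 within 1 kb.

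**Figure D4:**
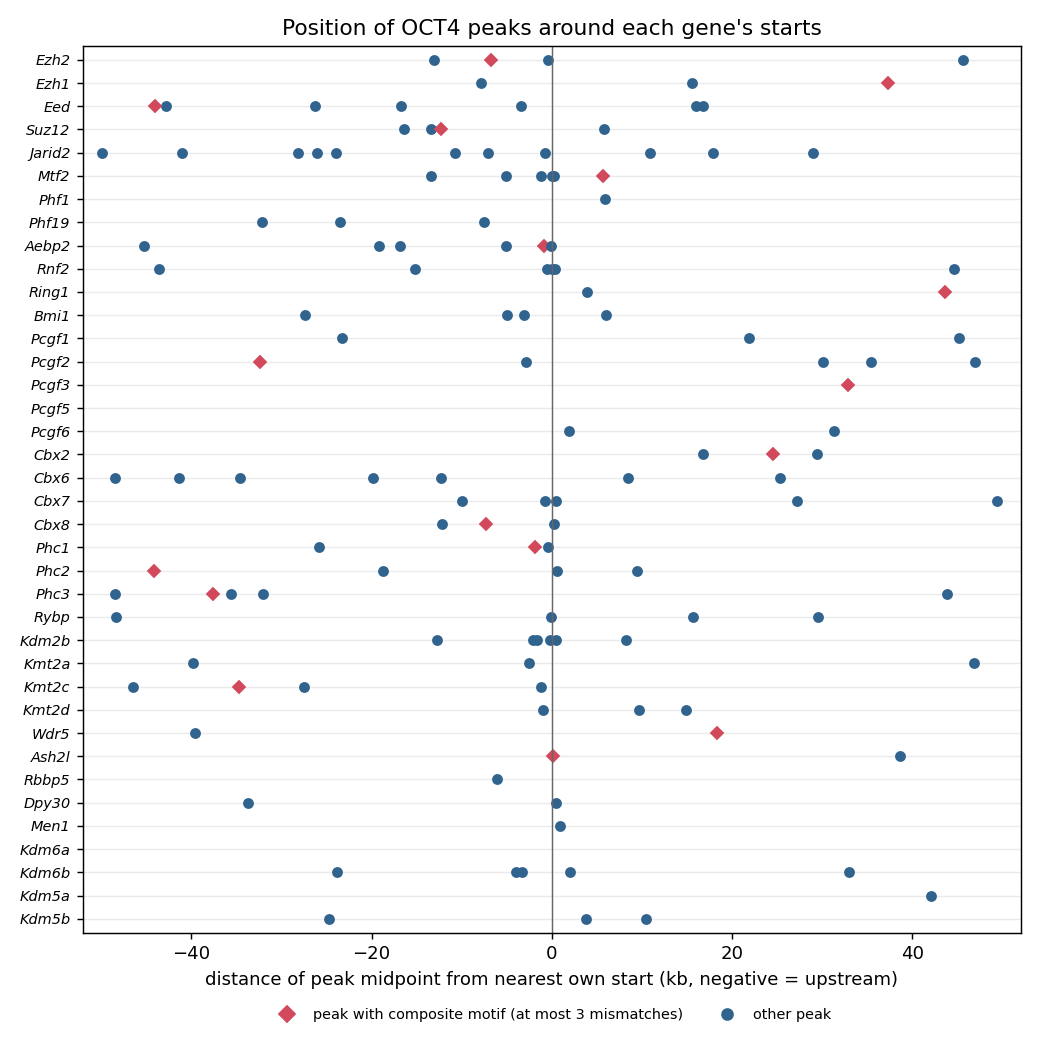
Distance of each peak midpoint from the nearest own start (kb, negative values upstream) for each gene, with 1 symbol per gene-peak pair. Red diamonds are the peaks with a composite match of at most 3 mismatches, which lie between 44.1 kb upstream (Phc2 and Eed) and 43.6 kb downstream (Ring1).

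Of the 20 peaks within 1 kb of a member's own start, 9 were upstream and 11 were downstream, their widths ran from 211 to 1018 bp, and their GC content from 41.5 to 73.6%. The ratio of observed to expected CpG was at least 0.6 in 7 of the 20. The exact octamer was found in 3 of them, at Phc1, Aebp2 and Ash2l, a composite match in 2, at Aebp2 and Ash2l, and a SOX core in 5. Of the 3637 other peaks within 1 kb of any protein-coding start, 6.21% had a composite match. Their shares with an octamer, a SOX core or a CpG ratio of at least 0.6 were not computed, so these counts have no background.

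The nearest protein-coding start belonged to a member for 78 of the 131 peaks (59.5%, 95% Wilson interval 51 to 67.6). Of the 38 genes, 28 were nearest to at least 1 of their peaks, as were 9613 of all 21938 protein-coding genes (43.8%). Among genes with a peak within 50 kb, these were 28 of 36 members and 9613 of 15824 protein-coding genes. Of the 28 members, 6 were nearest to all of their peaks (Jarid2, Mtf2, Cbx8, Phc1, Rybp and Rbbp5). The share of all protein-coding genes nearest to all of their peaks was not computed. The other 8 members with peaks were nearest to none of theirs (Phf1, Pcgf1, Pcgf2, Pcgf3, Cbx2, Phc3, Men1 and Kdm5a). When only peaks nearest to the gene were counted, for members and other genes alike, the ratio to the density classes was 2.6.

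The 131 peaks had a median width of 341 bp, against 353 bp for the other 26573 peaks, and a median GC content of 46.8% against 46.4%. Introns held 45.8% of their midpoints, against 45.5% for the other peaks. Intergenic sequence held 39.7%, against 46.1% for the other peaks and 38.2% for other peaks within 50 kb of a protein-coding start. Promoter-proximal peaks, with a midpoint within 1 kb of any protein-coding start, made up 28.2% of them (37 peaks, 95% Wilson interval 21.2 to 36.5). The share was 13.7% among all other peaks and 19.4% among the 18720 other peaks that also lay within 50 kb of a protein-coding start, a fairer comparison because the members' peaks were chosen for lying near starts. All intervals cover counting error only, and neighbouring peaks are not independent.

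Sequence motifs were compared with windows of the same width centred 5 kb to either side of the peaks, of which 252 did not overlap another peak. The composite match was present in 12.2% of the members' peaks (95% Wilson interval 7.66 to 18.9), in 11.5% of the other peaks and in 1.19% of the windows beside the members' peaks. The octamer alone, which is part of the composite motif, was present in 13.7% (8.87 to 20.7), 10.9% and 1.19%. Each share of 1.19% rests on 3 of the 252 windows, with an interval of 0.406 to 3.44. In the 52501 windows beside all peaks of the list the composite share was 1.86% and the octamer share 2.45%. In the central 200 bp of each peak the members' shares were below those of the other peaks, at 6.87% (3.66 to 12.5) against 8.6% for the composite match and 6.11% (3.13 to 11.6) against 7.99% for the octamer. Over whole peaks and in the centre, the intervals included the share of the other peaks. Polycomb genes had 13 of the peaks with a composite match among 104 peaks and Trithorax genes 3 among 27. The octamer was found in 16 of these 104 peaks and in 2 of these 27, and the intervals of both shares overlapped (9.7 to 23.5% and 2.06 to 23.4%).

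The share of the members' peaks with a SOX core was below that of the rest of the list, a difference that was not tested. The core was present in 26 of 131 peaks, or 19.8% (13.9 to 27.5). The share was 30.4% of all other peaks and 28.2% of other peaks within 50 kb of a protein-coding start. The windows beside the peaks also differed, at 10.3% (7.14 to 14.7) beside the members' peaks and 13.2% beside all peaks of the list. In the central 200 bp of each peak it was present in 13% (8.26 to 19.8) of the members' peaks and 20.5% of the others. Among peaks of at least 300 bp the SOX core share was 26.7% (18.5 to 36.9) near the members and 35.1% elsewhere, and among narrower peaks 6.67% (2.29 to 17.9) and 21.6%. Jarid2 had 4 of the 26 peaks with a SOX core. The ESRRB motif, bound by an orphan nuclear receptor of ES cells, was present in 15.3% against 14.8%, the KLF motif (GGGCGTGG or GGGTGTGG) in 9.92% against 9.19%, and the YY1 core in 3.82% against 1.96%, and for each of these the interval of the members' share included the share of the other peaks. In the central 200 bp the ESRRB motif was present in 3.82% (1.64 to 8.62) against 8.49%, the KLF motif in 3.82% (1.64 to 8.62) against 5.2% and the YY1 core in 2.29% (0.782 to 6.52) against 0.993%.

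**Figure D5:**
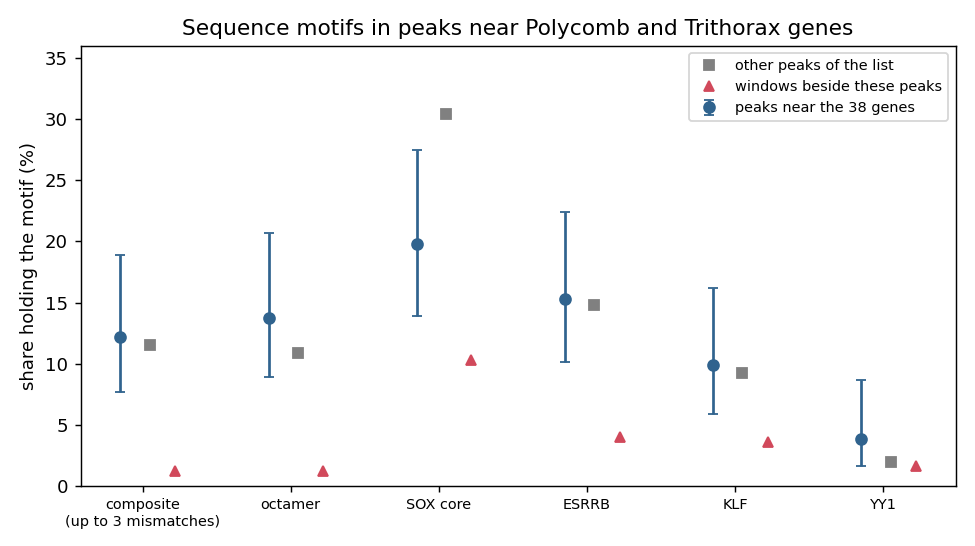
Share (%) of the 131 peaks near the 38 genes that hold each motif (blue points, bars are 95% Wilson intervals), of the other peaks of the list (grey squares) and of the 252 windows beside the 131 peaks (red triangles). The SOX core share of 19.8% is below the 30.4% of the other peaks, and the composite and octamer shares are above the windows at 1.19%.

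A further 34 genes of the same pathways, none of them among the 38, were counted in the same way. Of these, 30 (88.2%) had at least 1 peak within 50 kb, against 71% of genes of the same density. They had a mean of 3.79 ± 3.15 (SD over 34 genes) and a median of 3, and the mean was 2.05 times that of their density classes, 1.85. Their mean number of annotated starts was 6.26 and their mean window 147 kb. Per 100 kb of window they had 2.59 peaks, against 2.62 for the 38 members and 1.55 for all protein-coding genes. No ratio to genes with a like number of starts was computed for them. Of their 129 gene-peak pairs, 17 were at Auts2, a subunit gene of a PCGF3 or PCGF5 complex. The next highest counts were 9 at Usp7, 7 at Epop and 7 at Kmt2e. The peak 47 kb downstream of a start of Pcgf2 was nearest to Epop, at 15.7 kb, so both sets of genes share at least this peak. How many peaks they share was not counted, and the values of both sets are therefore not independent. No peak was found at Yaf2, the paralogue of Rybp, or at Bap1, Asxl2 and Cxxc1.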

How the data were processed

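ChIP-seq of OCT4 was performed by the authors in 2TS22C cells, with 2 libraries per group. According to the study's methods and the submitters' processing notes, reads were aligned to mm10 with STAR 2.6.1c, duplicates were removed with Picard, chromosomes 1 to 19, X and Y were kept, peaks were called with MACS2 2.1.1.20160309 in paired-end mode, and peak files were merged with BEDTools. How libraries were combined is not given in the sources used here. The deposited values are coordinates only (chromosome, start and end), with no count, height or score, so depth is unknown.

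Sequences were read from GRCm38 (RefSeq) and starts from GENCODE M21, with positions counted from 1, in Python 3.11.15 with NumPy 2.4.6. Each member was described beside every protein-coding gene of its density class. Shares carry 95% Wilson intervals. No p-value was computed, since the list has no value per library. The code was tested on simulated data. The members and gene lists were chosen with earlier results of these data known. Described in depth were genes with the 6 highest counts, with a composite match, with a peak within 1 kb of a start, or with no peak, and all others by count. The alternatives varied the window, the starts, the placement and width of peaks, repeats, density classes and mismatches. Comparison with genes of a like number of starts, leaving out Jarid2, the counts at 10 kb, 1 kb and 5 peaks and the ratios of the Polycomb and Trithorax sets, with their alternatives, were chosen after seeing the data.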

Additional observations from a re-analysis of the deposited data

How the results depend on the processing

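No paired analysis was possible because the merged list gives coordinates only and no value for any replicate. SOX2 OFF was therefore not compared with SOX2 ON, with or without the replicate block, and no replicate was left out. Of 102 alternatives of 13 main results, 77 stayed in range, 23 moved and 2 reversed. The ratio of members to genes of the same density stayed above 1 in every alternative, from 1.46 (like number of starts) to 2.6 (nearest gene only). The Trithorax ratio reversed to 0.991 (like number of starts) and 0.948 (peaks per 100 kb), and was 1.76 within 10 kb. By construction, the 131 peaks became 54, 84 and 199 within 10, 25 and 100 kb, 78 for the nearest gene only and 86 for peaks of at least 300 bp. Members with at least 5 peaks became 2, 4 and 23 within these distances (0.447%, 2.46% and 29.5% of all protein-coding genes), 7 with the most upstream start (5.86%), 5 for the nearest gene only (2.88%) and 7 with peaks of at least 300 bp (2.84%). Within 10 kb, 18 members had a peak of at least 300 bp (27%). Within 1 kb, 9 had a peak of that width (10.1%) and 9 had a peak with the most upstream start (12.5%). The composite share was 2.29% with 2 mismatches, 38.2% with 4 and 6.87% in the central 200 bp, where the octamer share was 6.11% and the SOX core share 13%. There the composite and octamer shares were below those of the other peaks (8.6% and 7.99%), whereas over whole peaks they were above. The promoter-proximal share was 40.5% at 2.5 kb. The median width was 421 bp for peaks of at least 300 bp and 305 bp within 10 kb, where the cause was not tested. Unknown depth limits every absence of a peak.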
